A study of Mus musculus with 6 samples.

Results

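The genes described here are 34 genes of mitosis and the spindle, chosen by name for the proteins they encode, at a time when earlier results of these data were known. They cover the cyclins and kinases that start mitosis, the spindle assembly checkpoint and the ubiquitin ligase that ends it, the kinetochore, the motors and binding proteins of spindle microtubules, the machinery of cytokinesis, and 2 proteins of mitotic chromosomes. The arrays carry probe sets, groups of short probes against 1 transcript, and 33 of the 34 genes had a probe set that the platform annotation gives to that gene alone. Ccnb1, the gene of cyclin B1, was not analysed here. A filter left out the dimmest 40% of probe sets, those under a mean signal of about 105, and 32 of the 34 genes passed it. Over the whole array 12797 of 18193 named genes passed.

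The RNA came from pineal glands dissected on postnatal day 0, all from strain 129, either wildtype or homozygous for a Neurod1 knockout. Both genotypes had 3 pools of 3 glands, with 1 Affymetrix array a pool, and the labels name no treatment. Both were kept on a cycle of 12 h light and 12 h dark and dissected in daytime. The labels do not state which part of Neurod1 was removed, and wildtype and knockout pools of the same number share a date in their titles, so differences are also given within each number.

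Cyclin B with its kinase CDK1 drives a cell from G2 into mitosis, Aurora and Polo kinases shape the spindle, and the spindle checkpoint holds chromosome separation back until kinetochores are attached. The anaphase-promoting complex (APC/C) then marks cyclin B and securin for destruction, and the central spindle guides the cleavage of the cell. Transcripts of these genes accumulate in G2 and mitosis, so in a tissue they are widely used as a readout of dividing cells. NEUROD1 is a basic helix-loop-helix transcription factor that binds E-box sequences and is known for its part in the differentiation of neurons and endocrine cells as they leave the cell cycle. In a whole gland, fewer dividing cells and less of a transcript in each dividing cell cannot be told apart.

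Neurod1 was measured first, as the targeted gene. Its signal was 9027, 9301 and 7519 in wildtype pools 1, 2 and 3, and 390.2, 524 and 122 in knockout pools 1, 2 and 3. The difference, knockout minus wildtype on the scale of log2(signal + 38.6), was -4.67 (SE 0.45, n = 3 and 3, limma adjusted p = 0.0362). With wildtype pool 1, 2 or 3 or knockout pool 1 left out, 0 genes passed an adjusted p under 0.05, Neurod1 included. Where its probes lie against the removed part is not given in the labels.

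A feature many of these genes share, which played no part in choosing them, lies in the sequence around their start sites. RefSeq windows on GRCm38.p6, from 250 bases before to 50 bases after a gene's start, were matched by symbol for 27 of the 34 genes, in 28 windows. Tpx2, Kif20a, Dlgap5, Aurkb, Cdc25c, Pbk and Ccna2 were not among them. A cell cycle homology region (CHR), the element through which MuvB complexes act on mitotic genes, was searched as TTTGAA or TTCGAA on both strands. It stood in 21 of 28 windows (75%), against 61.1% of 72 windows of other mitosis genes and 19.2% of all 32851 windows of that length. In Anln, Aurka, Bub1, Cenpa, Cenpf, Hmmr, Kif23, Ndc80, Plk1, Racgap1 and Ttk the CHR matches lay only after the start. A CCAAT box, the NF-Y element, searched as CCAAT on both strands, stood in 22 of 28 (78.6%), against 66.7% of the other mitosis windows and 37.4% of all. Both stood together in 19 of 28 (67.9%), against 43.1% of the other mitosis windows and 7.52% of all. E-boxes, searched as CAGCTG or CAGATG on both strands, stood in 5 of 28 (17.9%), against 22.2% of the other mitosis windows and 30.6% of all. These shares were not tested against each other. A match of letters is a description of the window and not a binding site.

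The 120 bases before the start are printed for 3 genes used as general markers of dividing cells (Cdk1, Mki67 and Top2a) and for Cenpe and Nusap1, whose knockout pools all lay below the wildtype pools. They run from 5′ to 3′ on the gene's strand, and capitals mark CHR and CCAAT matches on either strand.
Cdk1, chr10:69352913-69353032, minus strand: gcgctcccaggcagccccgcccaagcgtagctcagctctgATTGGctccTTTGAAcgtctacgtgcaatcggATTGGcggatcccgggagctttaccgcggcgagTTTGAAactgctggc
Mki67, chr7:135716380-135716499, minus strand: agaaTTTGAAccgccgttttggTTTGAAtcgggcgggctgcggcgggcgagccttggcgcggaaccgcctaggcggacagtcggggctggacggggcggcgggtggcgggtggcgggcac
Top2a, chr11:99024190-99024309, minus strand: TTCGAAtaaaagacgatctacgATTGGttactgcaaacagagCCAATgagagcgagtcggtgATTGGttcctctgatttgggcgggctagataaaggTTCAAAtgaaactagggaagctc
Cenpe, chr3:135212443-135212562, plus strand: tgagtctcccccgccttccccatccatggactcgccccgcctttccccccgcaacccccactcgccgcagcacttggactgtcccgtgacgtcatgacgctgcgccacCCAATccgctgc
Nusap1, chr2:119618178-119618297, plus strand: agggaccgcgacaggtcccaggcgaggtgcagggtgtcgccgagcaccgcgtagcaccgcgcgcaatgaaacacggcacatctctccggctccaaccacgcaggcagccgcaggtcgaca
The Cdk1 stretch holds CHR matches at -71 and -15 and CCAAT matches at -80 and -48, counted in bases from the start. Top2a holds CHR matches at -120 and -23, with CCAAT matches at -98, -78 and -58 between them. Mki67 shows its CHR matches at -116 and -98, and its CCAAT matches lie further out, at -188, -166 and -141. Cenpe shows a single CCAAT match at -12, and the Nusap1 stretch shows neither element.

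Across the 32 genes that passed the filter, knockout glands held a lower mean signal for 19 and a higher one for 13. None passed limma's test at an adjusted p under 0.05, where 1 of all 12797 genes passed with a lower value, Neurod1 itself (0.00781%). None passed at an unadjusted p under 0.05 either, where 1.37% of all genes passed with a lower and 1.98% with a higher value. The smallest unadjusted p among the 32 was 0.0895, for Nek2, and their limma adjusted p lay between 0.998 and 0.999. The median of their log2 differences was -0.11, against 0.03 over all genes, and 46.8% of all genes had a lower mean in knockout. Centring each array on its median moved the median over all genes to -0.11, with 62.3% of genes lower, and the median of the 32 to -0.25. Such centring shifts the difference of every gene by the same amount, so the median of the 32 relative to all genes stayed at -0.14 by arithmetic. With quantile normalization it was -0.11 relative to all genes. Without knockout pool 3 the median of the 32 was 0.0035, with 16 of 32 lower, while that of all genes was 0.08, which left -0.08 relative to all genes. Relative to all genes it was also -0.08 without wildtype pool 2 and -0.07 without knockout pool 1. With the mean of all probe sets of a gene the median of the 32 was -0.02, and with the probe set of widest interquartile range -0.01, with 17 of 32 lower in both.

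The differences of single genes ran from -0.63 for Nek2 to 0.56 for Hmmr, with standard errors between 0.24 and 0.58. Every one of the 32 confidence intervals (95%, limma) held 0. For 21 genes the interval stayed within -1 and 1, so that a change of 2-fold or more on this scale lay outside it. The intervals of 6 genes reached -1 and those of 5 reached 1, and for these the number of arrays left a 2-fold change undecided.

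**Figure D1:**
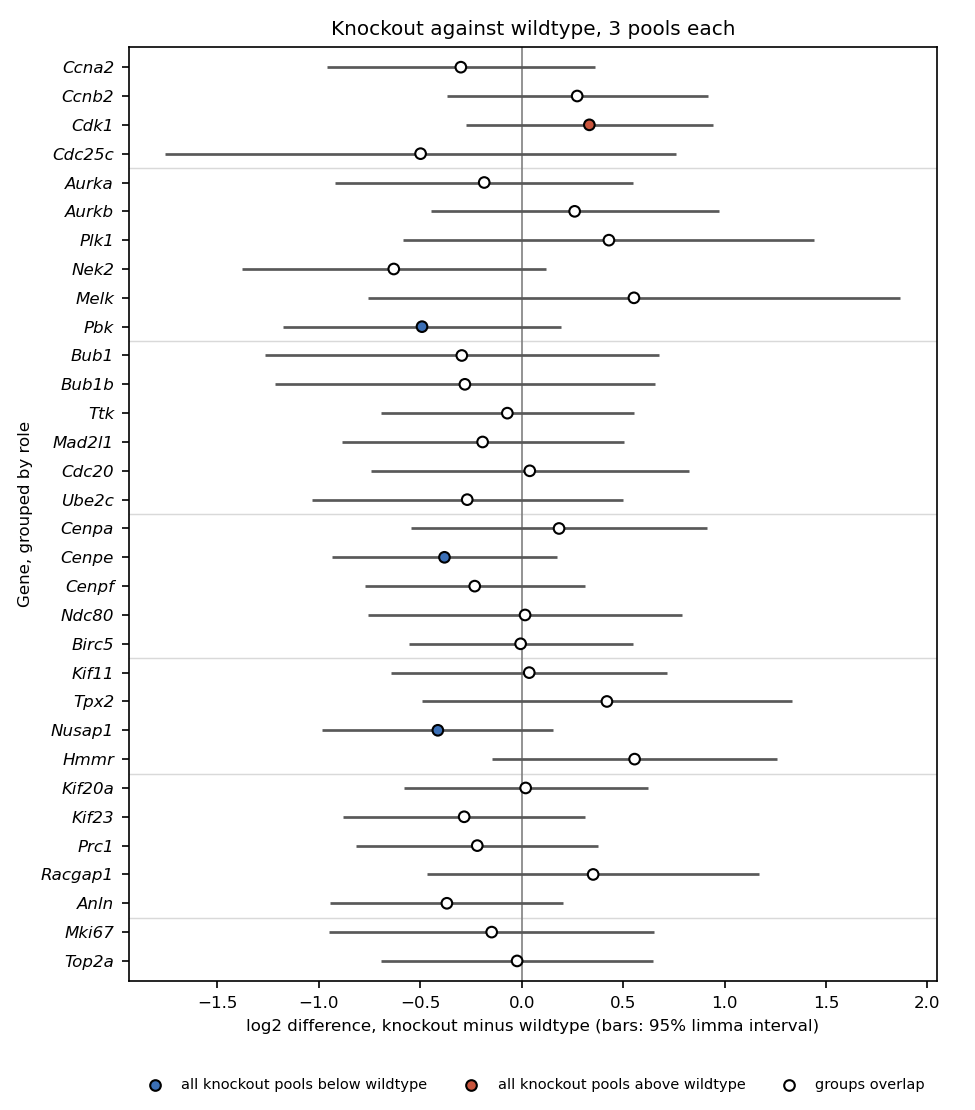
Log2 difference, knockout minus wildtype, of each of the 32 genes that passed the filter, grouped by role, as points with 95% limma intervals (3 pools a group). Every interval crosses 0, and filled points mark the 4 genes whose pools do not overlap between the groups: Pbk, Cenpe and Nusap1 lower and Cdk1 higher in knockout.

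The knockout pools lay apart from the wildtype pools for 4 of the 32 genes. Pbk, Cenpe and Nusap1 were lower in every knockout pool than in any wildtype pool, where 4.33% of all genes were, and Cdk1 was higher in every knockout pool, where 5.77% of all genes were. The values by pool follow in the order of the genes' roles.

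**Figure D2:**
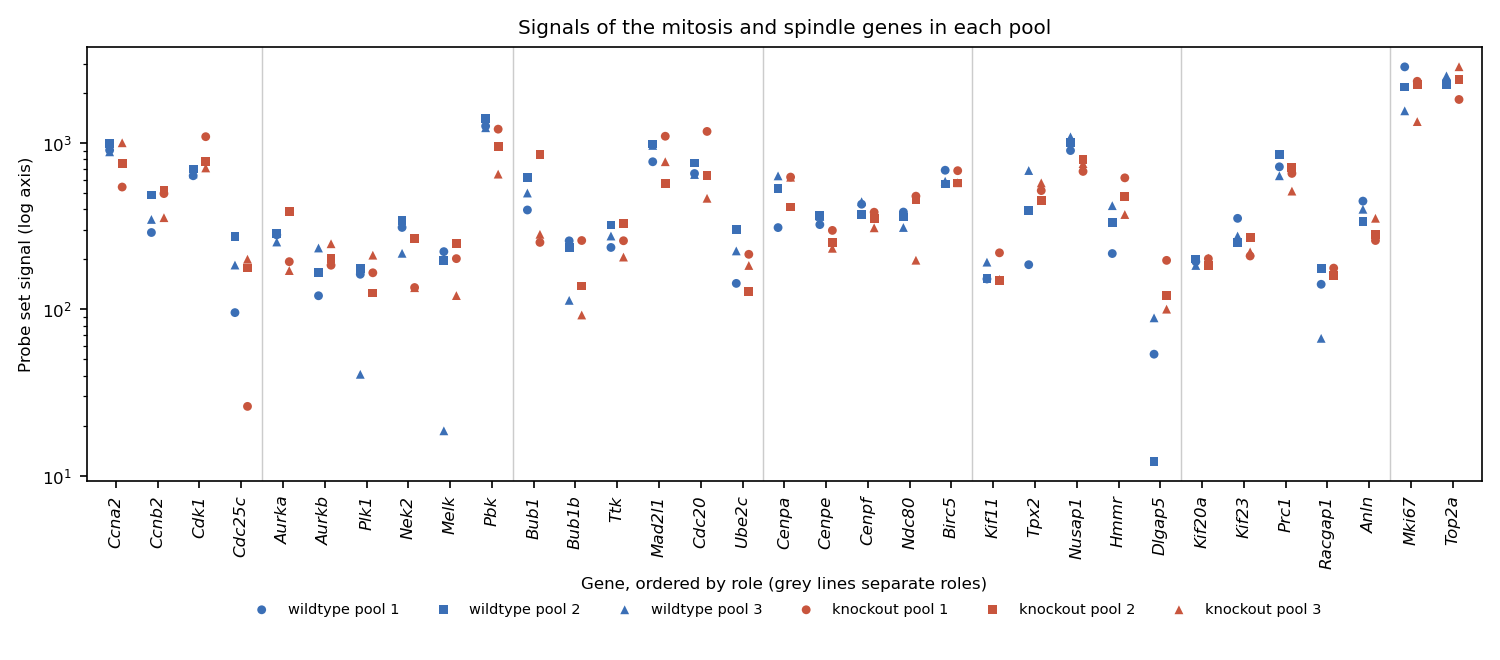
Deposited probe set signal of each of the 33 measured genes in each pool, on a log axis (blue wildtype, red knockout, 1 symbol per pool number). The blue and red symbols overlap for all but Cdk1, Pbk, Cenpe, Nusap1 and Dlgap5. Signals of different genes come from different probes and are not compared.

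Cdk1, the catalytic subunit that forms mitosis-promoting kinase with cyclin B, had signals of 638, 700.4 and 655 in wildtype pools 1, 2 and 3 and of 1096, 777 and 710.5 in knockout pools 1, 2 and 3. All knockout pools lay above all wildtype pools, and knockout pool 1 lay furthest above. The log2 difference was 0.33 (SE 0.27), and within pool numbers 1, 2 and 3 it was 0.75, 0.14 and 0.11. Without knockout pool 1 it was 0.15.

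Ccnb2, the gene of cyclin B2, had signals of 290.4, 488 and 348 in the wildtype pools and 498, 519 and 357 in the knockout pools, given here and from here on in the order of pools 1, 2 and 3. The groups overlapped, with wildtype pool 1 lowest, and the log2 difference was 0.27 (SE 0.28). Ccna2, the gene of cyclin A2, which acts in S phase and up to early mitosis, had 909, 992 and 888 in wildtype and 545, 756 and 1007 in knockout. Knockout pools held both its lowest and its highest value (log2 difference -0.30, SE 0.29). Cdc25c, a phosphatase that activates CDK1, had 95.7, 276 and 185 in wildtype and 26.1, 178 and 201 in knockout. Its lowest value came from knockout pool 1 alone. The log2 difference was -0.50 (SE 0.56) and turned to 0.11 without that pool.

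Among 6 mitotic kinases 3 means were lower and 3 higher, with a median difference of 0.04 that turned to -0.10 with median centring and -0.07 with quantile normalization, and ran from -0.19 without wildtype pool 3 to 0.14 without knockout pool 1. Nek2, a kinase of centrosome separation, had signals of 311.5, 343.5 and 218 in wildtype and of 136, 267 and 135 in knockout. Knockout pools 1 and 3 lay below every wildtype pool, while knockout pool 2 lay among them, and the log2 difference was -0.63 (SE 0.33). Pbk, a kinase found in dividing cells, had 1268, 1402 and 1240.3 in wildtype against 1216, 961 and 652 in knockout. All knockout pools were below, pool 1 by little and pool 3 by most, with a log2 difference of -0.49 (SE 0.30) overall and -0.06, -0.53 and -0.89 within numbers. Without knockout pool 3 the Pbk difference was -0.26.

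Melk, a kinase expressed in dividing progenitor cells, had 223, 196 and 18.6 in wildtype and 202, 249.8 and 121 in knockout. Its difference of 0.55 (SE 0.58) rested on the low value of wildtype pool 3 and was -0.15 without it. Plk1, the Polo kinase of centrosome maturation and mitotic exit, had 163, 177 and 40.7 in wildtype and 166, 126 and 212 in knockout. It too was lowest in wildtype pool 3, with a difference of 0.43 (SE 0.45) and of -0.03 without that pool. Aurka, the spindle pole Aurora kinase, differed by -0.18 (SE 0.32) and Aurkb, the Aurora kinase of the chromosomal passenger complex, by 0.26 (SE 0.31). Both overlapped between the groups.

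The spindle checkpoint and APC/C genes had lower means for 5 of 6, with a median difference of -0.23. That median was -0.09 without wildtype pool 2 and -0.04 without knockout pool 3, each with 4 of 6 lower, and -0.36 without knockout pool 1. Within pool number 1 it was 0.30, and within numbers 2 and 3 it was -0.44 and -0.34. Bub1, a checkpoint kinase at the kinetochore, had signals of 397, 619 and 502 in wildtype and of 253, 854 and 283 in knockout. Knockout pools 1 and 3 lay below all wildtype pools and knockout pool 2 above them all, and the log2 difference of -0.30 (SE 0.43) became -0.81 without knockout pool 2. Cdc20, the activator that directs the APC/C to its targets and is held by the checkpoint, had 658, 761 and 649 in wildtype and 1179, 637 and 467 in knockout. Here the wildtype pools lay together and the knockout pools on both sides of them (log2 difference 0.04, SE 0.35). Mad2l1, the checkpoint protein that binds CDC20, had 774, 991 and 971 in wildtype and 1103, 571 and 774.5 in knockout, with a difference of -0.19 (SE 0.31). The other three, with overlapping groups, were Bub1b, which encodes the checkpoint protein BUBR1 (-0.28, SE 0.41), Ttk, the kinase MPS1 that starts checkpoint signalling (-0.07, SE 0.28), and Ube2c, the ubiquitin-conjugating enzyme of the APC/C (-0.27, SE 0.34).

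At the centromere and kinetochore 3 of 5 means were lower, and 4 of 5 with median centring. Cenpe, a kinetochore motor that brings chromosomes to the spindle equator, had signals of 324, 366 and 362.5 in wildtype and of 299, 252 and 233 in knockout. Its groups did not overlap, and its log2 difference of -0.38 (SE 0.24) lay between -0.31 and -0.47 when any single pool was left out. Cenpa, the histone H3 variant of centromeres, had 311, 537 and 636 in wildtype and 626, 413 and 625 in knockout, a difference of 0.18 (SE 0.32) with the groups overlapping. Birc5, the gene of survivin in the passenger complex, had 688, 568 and 591 in wildtype and 684, 577 and 579 in knockout. Its means differed by -0.01 (SE 0.24; interval from -0.56 to 0.55), and each same-numbered pair differed by 0.03 or less in either direction. Cenpf, a kinetochore and nuclear matrix protein, differed by -0.23 (SE 0.24) and Ndc80, which ties kinetochores to microtubules, by 0.02 (SE 0.34).

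Of the spindle motors and microtubule binders, 4 of 5 passed the filter and 3 of these had higher means, or 2 with median centring or quantile normalization. Their median difference was 0.23, and it was 0.44 without wildtype pool 3. Without wildtype pool 1 it was -0.015, with 3 of 4 lower. Hmmr, a microtubule-associated protein of the spindle poles, had signals of 217, 335 and 421 in wildtype and of 619, 477 and 373 in knockout. Only knockout pool 3 overlapped with wildtype, and the log2 difference of 0.56 (SE 0.31) was 1.36, 0.47 and -0.16 within numbers 1, 2 and 3. Nusap1, which bundles microtubules near chromosomes, went the other way, with 904, 1012 and 1093 in wildtype and 677, 798 and 755 in knockout. Its groups did not overlap, its log2 difference was -0.41 (SE 0.25), and it was lower within each number, by -0.40, -0.33 and -0.51. Leaving out any single pool kept it between -0.35 and -0.48. Tpx2, the activator of Aurora A on the spindle, differed by 0.42 (SE 0.40) and by -0.02 without wildtype pool 1, and Kif11, the motor that pushes spindle poles apart, by 0.04 (SE 0.30).

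Dlgap5, a spindle-stabilising protein, was the measured gene below the filter. Its signals were 53.8, 12.2 and 89 in wildtype and 197, 122 and 100.4 in knockout, so all knockout pools lay above wildtype in a dim range. The log2 difference was 1.05, and with no filter limma gave it an unadjusted p of 0.0354 and an adjusted p of 0.998. How many of all dim genes reached such a p, or had groups that did not overlap, was not counted.

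The genes of the central spindle and cytokinesis had lower means for 3 of 5, and for 4 of 5 with either other scaling. Anln, an actin-binding scaffold of the cleavage furrow, had signals of 449, 339 and 401 in wildtype and of 259.9, 282 and 354 in knockout, with a log2 difference of -0.37 (SE 0.25). It overlapped through 1 pair of pools only and was lower within each number. Racgap1, a subunit of the centralspindlin complex, had 142, 177 and 67 in wildtype and 177, 161 and 160.1 in knockout, and its difference of 0.35 (SE 0.36) rested on a low wildtype pool 3. Prc1, which bundles the antiparallel microtubules of the central spindle, had 722, 857 and 637 in wildtype and 659, 717 and 515 in knockout, a difference of -0.22 (SE 0.26). Kif23, the motor subunit of centralspindlin, differed by -0.28 (SE 0.26), and Kif20a, a motor of the central spindle, by 0.02 (SE 0.27).

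Mki67, the gene of the Ki-67 protein that coats mitotic chromosomes, had signals of 2883, 2183 and 1568 in wildtype and of 2361, 2261 and 1351 in knockout. In both genotypes pool 3 was the lowest. The log2 difference was -0.15 (SE 0.35; interval from -0.95 to 0.65), and with the pool number as a block its SE was 0.23. Top2a, the topoisomerase that untangles sister chromatids, had 2361, 2252 and 2545 in wildtype and 1835, 2431 and 2889 in knockout. Its means of 2386 and 2385 differed by -0.02 on the log2 scale (SE 0.30; interval from -0.69 to 0.65), and knockout pools held both its lowest and its highest value.

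Several genes were read by more than 1 probe set, and these did not always point one way. Of 70 probe sets of these genes 54 passed the filter, 28 with a lower and 26 with a higher mean, and their median difference was -0.01. Among 16 genes with at least 2 such probe sets, 8 had a probe set of the opposite sign. Nek2 showed the widest disagreement: its other probe sets past the filter gave -0.15 and 0.88, beside -0.63 for the one used. A further Nek2 probe set, below the filter, gave 0.85.
For Bub1b the second probe set gave -1.05 beside -0.28, for Ttk 0.40 beside -0.07, and for Cdc25c 0.30 beside -0.50. The other Kif11 probe sets past the filter gave -0.28 and -0.45, beside 0.04 for the one used. Those of Tpx2 gave 0.16, 0.25 and -0.26, beside 0.42, and that of Cenpf gave 0.16 beside -0.23. The second Top2a probe set had 242, 351 and 348 in wildtype and 434, 374 and 373 in knockout, without overlap and 0.31 higher, beside -0.02. The other Hmmr probe sets past the filter gave 0.08, -0.05 and 0.18, beside 0.56 for the one used, and 1 below the filter gave 0.41. A second Nusap1 probe set, below the filter, gave 0.20 beside -0.41, with 1.08, -0.42 and -0.05 within numbers 1, 2 and 3. The second Cenpe probe set gave -0.34 and the second Prc1 probe set -0.17, close to the values above. For Racgap1 the second gave 0.65 beside 0.35. It had 149.4, 52.6 and 59.1 in wildtype and 240, 183 and 66.3 in knockout, so there wildtype pools 2 and 3 were both low.

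**Figure D3:**
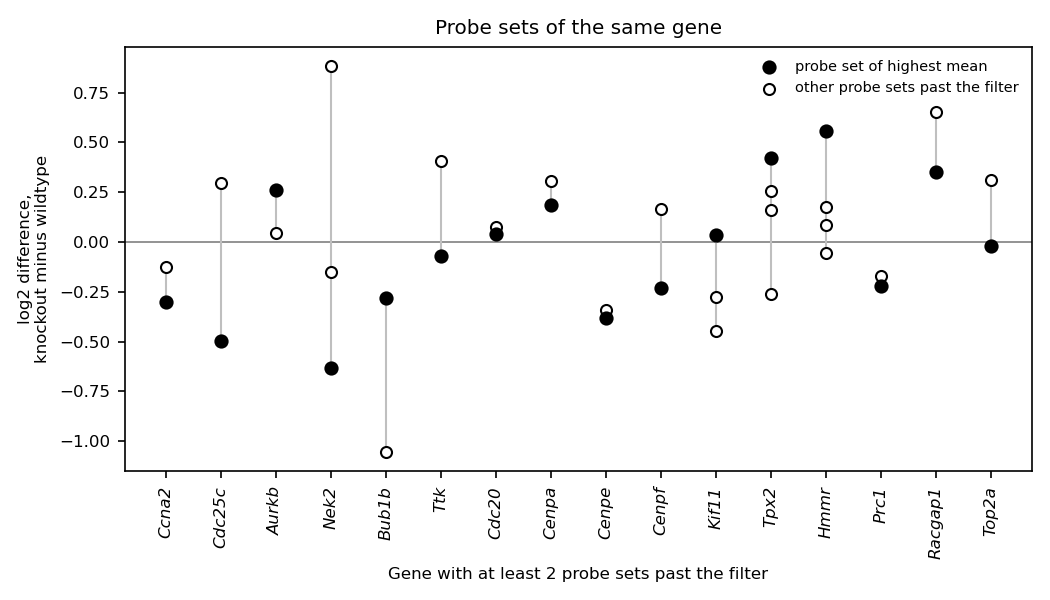
Log2 difference, knockout minus wildtype, of every probe set past the filter, for the 16 genes with at least 2 (filled: the probe set of highest mean, which represents the gene). For 8 genes the points lie on both sides of 0, most widely for Nek2, from -0.63 to 0.88.

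The values also varied among pools of 1 genotype. Knockout pool 3 held the lowest value of the 6 pools for 11 of the 32 genes, wildtype pool 2 for 1, and the other 4 pools for between 3 and 7. The highest value came from wildtype pool 2 and knockout pool 1 for 7 genes each and from the others for 4 or 5. Relative to the mean of the 6 arrays, 22 genes were above it in wildtype pool 2 and 10 in knockout pool 3. As medians on that log2 scale, the 32 genes lay at 0.19 in wildtype pool 2 and -0.15 in knockout pool 3. Over all genes tested these medians were 0.003 and -0.07, so knockout pool 3 was the lowest pool there too. The counts of lowest and highest pools were not made over all genes.

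**Figure D4:**
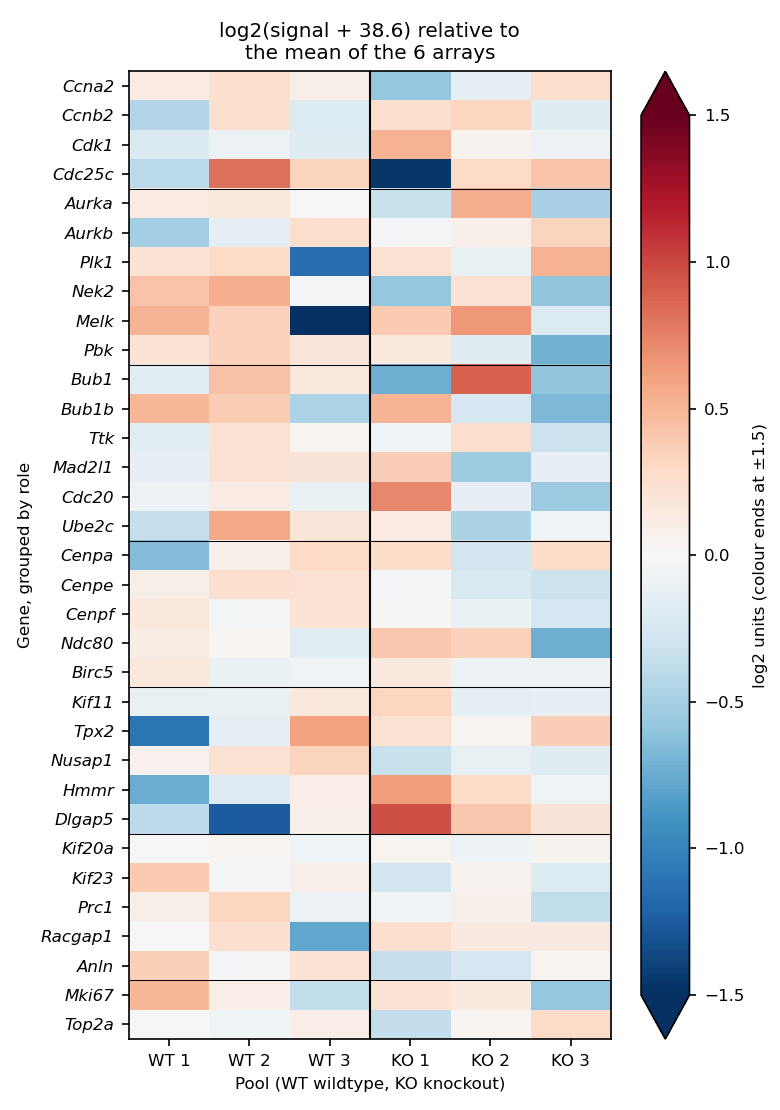
log2(signal + 38.6) of the 33 measured genes in each pool, relative to that gene's mean over the 6 arrays, with colours ending at 1.5 in either direction. Red and blue are mixed in every column, and knockout pool 3 has the most genes below the mean, 22 of the 32 that passed the filter. The median over all genes tested was also lowest in that pool, at -0.07.

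Within pool number 1, 16 of 32 genes were lower in knockout, within number 2 it was 18, and within number 3 it was 22. The medians within numbers were 0.00, -0.09 and -0.22, against 0.11, 0.00 and -0.06 over all genes. Lower within all 3 numbers were 7 of 32 genes (Anln, Cenpe, Cenpf, Nek2, Nusap1, Pbk and Prc1), where 15.4% of all genes were. Higher within all 3 were Aurkb, Ccnb2 and Cdk1, where 14.9% of all genes were. With the pool number as a block, none of the 32 genes passed limma at an adjusted p under 0.05 (smallest adjusted p 0.768) and none at an unadjusted p under 0.05.

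The result changed when arrays were weighted by their scatter. Limma's array weights gave wildtype pool 2 a weight of 7.05 and knockout pool 2 a weight of 6.20, and the other 4 pools 0.54 or less, so that the comparison rested mainly on 1 pool a group. Male germ cell genes had their highest summed signals in the same pools, 5969 in wildtype pool 2 and 35067 in knockout pool 2. In the other 4 pools that sum lay between 996 and 2260, and its part in the weighted result was not tested. The weight estimation stopped before it converged. Then 22.9% of all genes passed an adjusted p under 0.05 in either direction, and 6 of the 32 genes did. Ube2c (-0.91), Mad2l1 (-0.68), Bub1b (-0.60), Pbk (-0.53) and Cenpe (-0.47) were lower and Hmmr (0.48) was higher, with limma adjusted p between 0.0099 and 0.0441.

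Around these genes stand other genes of the cell cycle, from lists made by function. None of the tested members of these lists passed an adjusted p under 0.05 in limma. Of 69 other mitosis genes 59 were tested, 35 lower and 24 higher, with a median difference of -0.10. The median was -0.03 without knockout pool 1, -0.06 without knockout pool 3 (30 of 59 lower), 0.005 without both pools of number 3 and 0.0002 with array weights. Without overlap between the groups were 6 lower and 2 higher, beside 4.33% and 5.77% of all genes. At an unadjusted p under 0.05 in limma there were 2 lower and none higher, beside 1.37% and 1.98% of all genes. These were Smc2, a condensin subunit that compacts chromosomes, with 1496, 1368 and 1372 in wildtype and 651, 1051 and 952 in knockout (log2 difference -0.68, SE 0.28), and Depdc1a, a gene expressed in dividing cells (-0.68, SE 0.29).

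Of the genes that control entry into and exit from mitosis 11 of 19 were lower (median -0.18), or 17 with median centring, and the median was -0.12 without wildtype pool 1 and -0.06 without knockout pool 3. In this list none passed an unadjusted p under 0.05 in limma, where 1.37% of all genes passed with a lower and 1.98% with a higher value. Without overlap between the groups 0 were lower and 1, Fzr1, was higher, beside 4.33% and 5.77% of all genes. The smallest p belonged to Fzr1, the APC/C activator CDH1 of mitotic exit and G1 (0.43, SE 0.27), and Anapc1, the scaffold subunit of the APC/C (-0.46, SE 0.31). Transcription regulators of the mitotic programme were lower for 14 of 25 (median -0.14), with 1 lower and 2 higher at an unadjusted p under 0.05 (1.37% and 1.98% of all genes) and with 7 lower and 1 higher without overlap (4.33% and 5.77% of all genes). That median turned to 0.16 without knockout pool 1 and to 0.04 without knockout pool 2, and was -0.07 without wildtype pool 3. Foxm1, a main activator of G2 and mitosis genes, had 402, 545 and 625 in wildtype and 684, 349 and 415 in knockout, a difference of -0.14 (SE 0.31). Mybl2, which encodes B-MYB, the partner of MuvB, differed by 0.46 (SE 0.41). E2f8, a repressor of the E2F family, had 276, 242 and 374.5 in wildtype and 501, 811 and 491 in knockout (0.91, SE 0.29), and Mycn, the N-MYC gene of dividing neural progenitors, had 4014, 3629 and 2988 against 1516, 2606 and 2132 (-0.78, SE 0.32). Both had groups that did not overlap and adjusted p of 0.998.

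G1 cyclins, their kinases and CDK inhibitors were lower for 13 of 20 (median -0.10). The median was -0.0006 without knockout pool 2, with 10 of 20 lower, and -0.24 without wildtype pool 3. Ccne2, the gene of cyclin E2 of the G1 to S transition, had 783, 668 and 891 in wildtype and 263, 497 and 569 in knockout (-0.82, SE 0.32). It was the single gene of that list at an unadjusted p under 0.05 in limma, where 1.37% of all genes passed with a lower and 1.98% with a higher value. Without overlap between the groups were 2 of the list lower, Ccne2 and Ccnd2, and 0 higher, beside 4.33% and 5.77% of all genes. Ccnd2, the gene of cyclin D2 that carries growth signals into G1, differed by -0.40 (SE 0.29). The CDK inhibitors Cdkn1a, Cdkn1b and Cdkn1c, which hold cells out of the cycle, differed by 0.25, 0.24 and -0.07 (SE 0.37, 0.52 and 0.37). Of 43 genes of DNA replication and S phase 36 were tested, 30 lower and 6 higher, with a median difference of -0.33 that was -0.30 and -0.47 with the other scalings. Without overlap between the groups were 5 of these lower and 0 higher, beside 4.33% and 5.77% of all genes. At an unadjusted p under 0.05 in limma there were 2 lower and 0 higher, beside 1.37% and 1.98% of all genes. They were Hells, a chromatin remodeller of replicating cells, with 1402, 1059.5 and 887 in wildtype and 508, 506 and 631 in knockout (-0.96, SE 0.28), and Mcm2, a subunit of the replicative helicase, with 1877, 1152 and 654.5 against 398, 623 and 450.1 (-1.16, SE 0.39). The median of the S phase list was -0.16 without knockout pool 3, with 23 of 36 lower, -0.19 without wildtype pool 1 and -0.52 without knockout pool 1. Whether that list differs from the 32 mitosis genes was not tested.

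**Figure D5:**
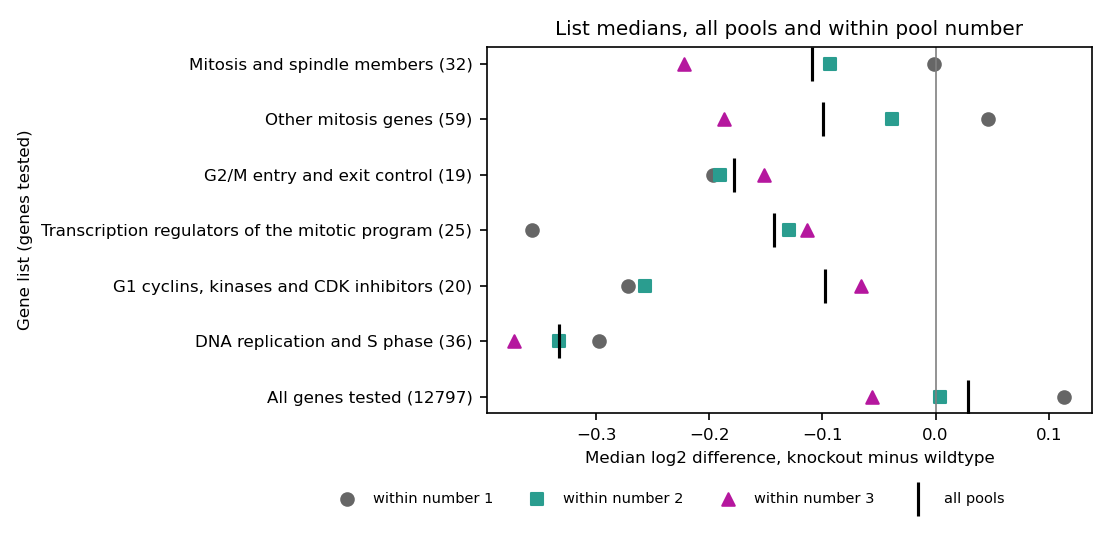
Median log2 difference, knockout minus wildtype, of the 32 mitosis and spindle genes, of 5 other cell cycle lists and of all genes tested, over all pools (black bars) and within pool numbers 1, 2 and 3 (symbols). The 32 genes lie at -0.11 overall and move from 0.00 within number 1 to -0.22 within number 3, while the S phase list lies between -0.30 and -0.37.

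Other measures moved with the groups or with single pools. Pinealocyte markers, used to check the label of the tissue, gave signal in every pool (Tph1 between 2755 and 15095, Otx2 between 9618 and 15178). Otx2 is also listed among the choroid plexus markers and is not particular to pinealocytes. Of the pinealocyte markers, 10 of 12 had lower means in knockout (median -0.44, or -0.95 without knockout pool 1 and -0.22 without knockout pool 3). Their summed signal ran from 38198 to 59198 in wildtype and from 26146 to 46517 in knockout, lowest in knockout pool 3. That pool also held the lowest value of 11 mitosis genes and the lowest median over all genes. Macrophage markers were higher for 13 of 14 (median 0.42; summed signal 10495 to 11088 against 13076 to 18576), pericyte and smooth muscle markers for 9 of 9 (0.42; 12775 to 16033 against 16048 to 25260.1), meningeal fibroblast markers for 12 of 13 (0.22; 91320.4 to 97922 against 114294 to 136495) and endothelial markers for 11 of 12 (0.20; 13631 to 19829 against 16769 to 25939.6), or 7 of 12 without knockout pool 2. With a single pool left out, the medians ran from 0.22 to 0.53 for macrophage, 0.26 to 0.60 for pericyte, 0.14 to 0.37 for fibroblast and 0.14 to 0.44 for endothelial markers, lowest without knockout pools 1 and 2, wildtype pool 1 and knockout pool 2, in that order. Centred on array medians, 1 to 6 markers of each of these lists had lower means. Markers of Schwann cells and oligodendrocytes were higher for 6 of 7, of glia and radial progenitors for 7 of 12, of neurons for 6 of 13, of cerebellum and midbrain for 2 of 5 and of erythroblasts for 2 of 4. No listed marker was at 0 on any array. Male germ cell genes were higher for 10 of 12, and for 5 of 12 without knockout pool 2. In that pool Crisp2 had a signal of 17677 and Sycp3 one of 3386, while wildtype pool 2 had 1700.1 and 938.5, and the remaining 4 pools stayed at or below 11.2 for Crisp2 and 526 for Sycp3. Of the 32 mitosis genes, knockout pool 2 held the highest value of 5 (Aurka, Bub1, Ccnb2, Melk and Ttk) and the lowest of 4 (Kif11, Kif20a, Mad2l1 and Ube2c). Choroid plexus markers were higher for 4 of 6, and for 2 of 6 without wildtype pool 1. Ttr, the transthyretin gene of that tissue, read 898 on the array of wildtype pool 1, 685 on that of knockout pool 3, and from 38903 to 87464 on every other array. Genes of ribosomes and the respiratory chain (118) lay 1.20 above their own mean over the 6 arrays in knockout pool 1, as a median on the log2 scale, and from -0.68 to 0.10 elsewhere. The part of these differences in the mitosis genes' values was not tested.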

How the data were processed

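The authors deposited a linear signal intensity per probe set (45037) and array (6). Their processing notes, as the submitters list them, name GCOS with no version, and the sources used here do not give how the signal was computed. Each deposited intensity column had a 2% trimmed mean between 499.5 and 500.0, so arrays had been scaled before deposit. RNA was amplified once and labelled with biotin, per the labels' protocols.

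Values were taken as log2(signal + 38.6), the offset being the 20th percentile of all values, which understates changes of dim genes. Of the probe sets, 34945 named 1 gene in the platform annotation, 932 several and 9160 none. The dimmest 40% by mean log2 value were left out, and the probe set of highest mean stood for a gene. Limma 3.58.1 (R 4.3.3, lmFit, eBayes with trend, two-sided) compared 3 knockout with 3 wildtype pools, with Benjamini-Hochberg adjustment over 12797 genes. On simulated data the check was that mean estimates lay near the planted differences. That check does not tell how many such changes would pass the threshold. Deviations of same-numbered pools from their group means correlated (0.32, 0.25 and 0.36 for numbers 1, 2 and 3), and titles give them a shared date, so pool number was used as a block in an alternative. With 3 pools against 3 the smallest p of an exact permutation test is 0.1, and none was run. Precision is limited by the number of arrays.

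The genes and lists were chosen with earlier results of these data known. Values by pool are given for Mki67, Top2a, Ccnb2, Cdk1, the lowest and highest difference and the highest mean of each role, and genes whose groups do not overlap. In each companion list, the 2 genes of smallest p are named.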

Additional observations from a re-analysis of the deposited data

How the results depend on the processing

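Of 20 alternatives, 19 left none of the mitosis and spindle genes past a limma adjusted p under 0.05, with smallest adjusted p values from 0.538 upwards, and array weights gave 6. The count of all genes called was 1. It was 0 with no offset, with quantile normalization and with both pools of number 1, 2 or 3 left out, 2932 with array weights, and 0 to 1 with a single pool left out. The cause was not tested. The median difference of the mitosis genes, -0.11, was -0.25 with median centring, which shifts the difference of every gene by the same amount. It ran from -0.15 to 0.0035 with a single pool left out, the latter without knockout pool 3, where the median of all genes was 0.08. It was -0.02 with the mean of all probe sets and -0.01 with the probe set of widest interquartile range. The replicate block, which treats same-numbered pools as paired, gave 1 gene called overall and the same median of -0.11, and changed no other call. In every alternative that tested them 11 genes kept their sign (Anln, Aurkb, Bub1b, Ccna2, Ccnb2, Cdk1, Cenpe, Hmmr, Nusap1, Pbk and Prc1) where Aurkb and Bub1b were not tested with the lowest 60% left out, and 21 changed it in at least 1. Of 630 values of single genes, 13 moved by over 1 SD between pools, 7 of them through another choice of probe set. With no filter 33 genes were tested and 1, Dlgap5, had an unadjusted p under 0.05 in limma. The share of all 18193 genes under that p with no filter was not counted. Signal over background limits the dim genes, and detection calls were not analysed here.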
